A study of Arabidopsis thaliana with 30 samples.

Results

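The gene set described here is made up of 10 loci: the phytochrome interacting factor genes PIF1 (AT2G20180), PIF3 (AT1G09530), PIF4 (AT2G43010), PIF5 (AT3G59060), PIF7 (AT5G61270) and PIF8 (AT4G00050), and the related shade-response genes HFR1 (AT1G02340), PAR1 (AT2G42870), PIL1 (AT2G46970) and PIL2 (AT3G62090). They lie on all 5 chromosomes, with PIF4 (chromosome 2, 17886427 to 17889050) and PAR1 (chromosome 2, 17836416 to 17837250) as near neighbours. PAR1 has 1 exon and the others have 5 to 9. They were picked by locus identifier, by a rule that uses no measured values, and are 10 of the 33602 genes in each count file. All 10 passed the filter on low counts. RNA was sequenced from Arabidopsis thaliana seedlings that had germinated in 1 day of light and then grown for 4 days in darkness, so that they were 5 days old. Seedlings were treated for 2 h and then cut at the junction of root and shoot, and both organs were sequenced separately, which gave 10 groups of 3 libraries. The aba2-3 seedlings, which carry a mutant allele of the abscisic acid (ABA) biosynthesis gene ABA2, received 10 µM of the auxin indole-3-acetic acid (IAA) or an ethanol mock. The wild type, spelled Col-O in the labels, received 10 µM IAA, 10 µM ABA or the mock. All groups, mocks included, share the growth in darkness and the transfer under green light, so no light-grown or shaded plant stands beside them. The labels do not state whether replicates came from separate cultures, so p-values measure the spread between these libraries, which may be technical.

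Phytochrome interacting factors (PIFs) are basic helix-loop-helix (bHLH) proteins that bind G-box DNA motifs and hold seedlings in dark growth, with a long hypocotyl, closed cotyledons and repressed chlorophyll synthesis. Light-activated phytochromes bind them and send most of them for degradation, while shade lets them accumulate and raise auxin synthesis. HFR1 and PAR1 are helix-loop-helix proteins that pair with PIFs and keep them from DNA, and their genes are raised in shade as a brake on elongation. PIL1 is a classical early shade-induced gene, and PIL2, also called PIF6, has been linked to seed dormancy. Much of the control of PIFs acts on the proteins, which were not measured here.

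Library totals ran from 3.9 M counts, in aba2-3 IAA shoot replicate 3, to 99.3 M, in Col-O mock shoot replicate 2, with a median of 23.2 M. The lowest counts for a member in any library were 1 for PIL1 and 2 for PIF8, both in roots. Levels are given as CPM, which is counts per M of library size, with library sizes scaled by the trimmed mean of M-values (TMM), and levels of different genes are compared only per kilobase of exon. The labelled organs were checked with 10 shoot and 10 root marker genes. The summed shoot markers, led by the light-harvesting gene CAB1 and the Rubisco gene RBCS1A, ran from 20600 to 69700 CPM in shoots and from 182 to 6070 CPM in roots. STM, a shoot meristem gene, had no count in 6 of the 15 root libraries. KAN1 overlapped between organs, at 15.3 to 31.5 CPM in shoots and 5.79 to 19.6 CPM in roots. GL1 and CUC2 were near absent from both organs, with medians of 0.196 and 0.4 CPM in shoots. They had no count in 5 and 3 shoot libraries. The other shoot markers did not overlap between organs. The root markers PLT1, PLT2, RHD6, IRT1 and NRT2.1 were lower in every shoot library than in every root library, whereas PYK10, which made up most of the root-marker sum, was at 5560 to 11000 CPM in shoots and 1680 to 7270 CPM in roots. The other root markers, SHR, SCR, CASP1 and CASP2, overlapped between organs. Their medians were 27.4, 38.4, 278 and 87.0 CPM in shoots and 36.8, 31.9, 341 and 80.9 CPM in roots. The summed root markers were at 5900 to 11500 CPM in shoots and 2770 to 8120 CPM in roots. The root libraries also differed in shoot-signature genes, 278 genes that are high in shoots and near absent from the cleanest root libraries. In 5 root libraries (Col-O IAA root 2, Col-O ABA root 2 and 3, Col-O mock root 3 and aba2-3 mock root 1) these genes stood at 5.99 to 11.4% of their shoot level, against 0.443 to 1.88% in the other 10. Among shoots, aba2-3 IAA shoot 3 carried 37 genes of a root signature at 6.73% of what roots show, and the next library at 2.74%. Col-O mock shoot 1 had its own shoot-signature genes at 45.7% of the shoot median, against 79.7% or more in the other shoot libraries. Among roots, aba2-3 IAA root 1 and 3 had their own root-signature genes at 68.1 and 68.9% of the root median. The other root libraries had 89.2% or more. The ABA2 transcript did not separate the genotypes: it was at 26.0 ± 4.22 CPM in aba2-3 mock roots and 22.6 ± 2.21 CPM in Col-O mock roots (SD, n = 3 each), so its level checks no label.

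In darkness HFR1 was the most abundant member per length. In Col-O mock shoots it stood at 109 ± 12 CPM per kb (SD, n = 3), with no overlap with PIF3, which followed at 60.5 ± 18.5 CPM per kb. PAR1 at 45.3 ± 13.8, PIF5 at 37.5 ± 9.70, PIF4 at 27.5 ± 9.80 and PIF8 at 22.9 ± 1.59 CPM per kb came next, and the libraries of each neighbouring pair overlapped. PIF1, which represses light-dependent germination and greening, followed at 10.3 ± 2.23 CPM per kb and did not overlap with PIF8. PIL1 at 6.24 ± 2.67 and PIF7, the main PIF of shade-induced auxin synthesis, at 2.71 ± 0.58 CPM per kb were low, and PIL2 was lowest at 1.11 ± 0.142 CPM per kb. HFR1 ranked first in all 10 groups, although its libraries overlapped those of PAR1, the next gene, in aba2-3 mock roots and aba2-3 IAA shoots. In Col-O mock roots the order began with HFR1 at 20.1 ± 9.54 and PAR1 at 7.06 ± 3.39 CPM per kb, and below HFR1 the libraries of each gene overlapped those of the next.

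**Figure D1:**
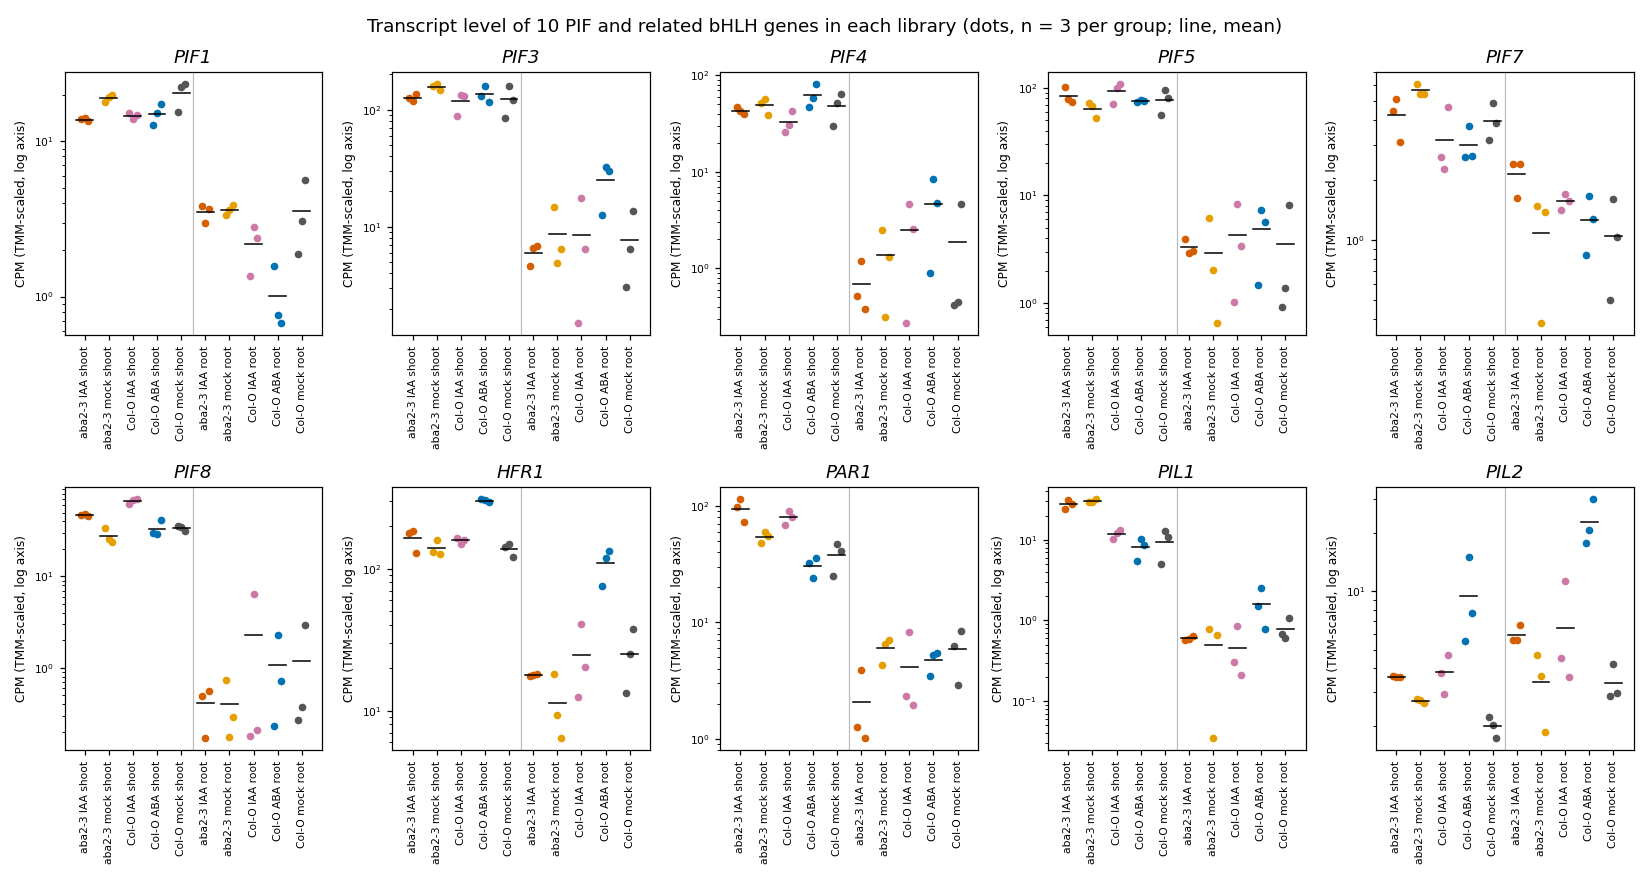
TMM-scaled CPM (log axis) of the 10 genes in each library, with shoots left of the grey line and roots right of it; dots are libraries (n = 3 per group) and lines are group means. All but PIL2 lie higher in shoots than in roots in every condition, and the root libraries of a group often spread over a wide range.

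All members but PIL2 were higher in shoots than in roots in all 5 conditions. PIF4, which drives hypocotyl growth in warmth and shade, was at 29.8, 51.1 and 63.8 CPM in Col-O mock shoots, against 0.42, 0.449 and 4.69 CPM in Col-O mock roots, a log2 difference of 4.79 ± 0.83 (SE; adjusted p = 3.2e-05, edgeR quasi-likelihood F test, Benjamini-Hochberg over 22156 genes). Every shoot library lay above every root library, and the root library at 4.69 CPM was the one with shoot-signature genes at 8.05%. PIF8, listed as UNE10 in RefSeq and known to restrain phytochrome A responses, showed the widest gap, with 35.7, 35.2 and 31.3 CPM in Col-O mock shoots against 0.267, 0.374 and 2.94 CPM in Col-O mock roots (log2 difference 4.94 ± 0.87, adjusted p = 3.7e-05). The other log2 differences in Col-O mock were 4.52 ± 0.74 for PIF5, 3.99 ± 0.60 for PIF3, 3.62 ± 0.50 for PIL1, 2.69 ± 0.45 for PAR1, 2.55 ± 0.31 for PIF1, 2.44 ± 0.37 for HFR1 and 1.93 ± 0.42 for PIF7, with adjusted p of at most 0.00042. Of all genes tested, 25.6% were called higher in shoots than in roots in Col-O mock, 27.7% in aba2-3 mock, 27.8% in Col-O IAA, 26.1% in Col-O ABA and 25.5% in aba2-3 IAA, against 9 of the 10 members in each. The median log2 difference in Col-O mock was 3.16 over the members and -0.03 over all genes. In these whole-organ samples, fewer cells of a type and less RNA per cell cannot be told apart.

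Of the 9 members that were higher in shoots, PIF7 had the smallest contrast in every condition but aba2-3 mock, where it was 2.40 and that of PIF1 was 2.39. Its libraries did not overlap between organs in any condition, but the difference was 1.03 ± 0.41 in Col-O IAA (adjusted p = 0.035) and 1.00 ± 0.41 in aba2-3 IAA (adjusted p = 0.043). Those 2 calls were lost with no filter (adjusted p 0.053 in Col-O IAA and 0.071 in aba2-3 IAA), with covariates for the other organ's signature (0.053 and 0.076), and when single libraries were left out. In Col-O IAA the values without IAA root 1, 2 or 3 were 0.96, 1.09 and 1.03 (adjusted p 0.093, 0.055 and 0.072), and without IAA shoot 3 the value was 0.64 (adjusted p = 0.23). In aba2-3 IAA they were 1.09, 0.94 and 1.08 without IAA root 1, 2 or 3 and 0.97 and 0.84 without IAA shoot 1 or 2 (adjusted p 0.064, 0.098, 0.064, 0.094 and 0.14). In Col-O ABA the difference of 1.27 ± 0.41 (adjusted p = 0.012) was 1.08 without ABA root 1 (adjusted p = 0.061). With the 2 groups fitted alone PIF7 missed the threshold in Col-O IAA (1.08, adjusted p = 0.069) and in Col-O ABA (1.29, adjusted p = 0.052).

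PIL2 went the other way. It was at 5.52, 15 and 7.73 CPM in Col-O ABA shoots, against 17.7, 20.8 and 30.0 CPM in Col-O ABA roots, a log2 difference of -1.28 ± 0.36 (adjusted p = 0.0045). The libraries did not overlap. Without the libraries above 5% of the other organ's signature, which leaves 1 ABA root library, the difference was -0.87 and not called (adjusted p = 0.089). In the other 4 conditions it was -0.74 in Col-O mock, -0.32 in aba2-3 mock, -0.77 in Col-O IAA and -0.72 in aba2-3 IAA, with no call (adjusted p 0.084 to 0.50). The value in aba2-3 mock turned to 0.02 without aba2-3 mock root 1, one of the 5 root libraries named above. In Col-O IAA it was -0.97 and -1.05 without IAA root 1 or 3 and then passed the threshold (adjusted p 0.047 and 0.025). PIL2 was also called lower in shoots in Col-O mock with the 2 groups fitted alone (-0.72, adjusted p = 0.035), and in aba2-3 IAA with the covariates (-0.88, adjusted p = 0.037) or the 2 groups alone (-0.67, adjusted p = 0.020).

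In roots, the levels of several members followed the shoot signature. PIF5, a close relative of PIF4, ran from 5.68 to 8.33 CPM in the 5 root libraries above 5% and from 0.652 to 3.91 CPM in the other 10. PIF4 ran from 2.47 to 8.35 CPM in those 5 and from 0.272 to 2.57 CPM in the 10, PIF8 from 0.714 to 6.39 and from 0.17 to 0.562 CPM, and PIF3 from 13.7 to 32.4 and from 1.51 to 12.7 CPM. PIF3, PIF5 and PIF8 therefore showed no overlap between those libraries and the rest, whatever the treatment. Each library's signature percentage was multiplied by the member's mean in shoots of the same genotype and treatment. In the 5 libraries this gave 62.2 to 118% of the PIF5 level measured, 93.0 to 311% of PIF8, 29.1 to 227% of PIF1 and 30.0 to 71.7% of PIF3. It gave 63.0 to 119% of PIF4, 35.8 to 85.9% of PAR1 and 36.8 to 234% of PIL1. For PIF7 it was 15.6 to 31.1%, for HFR1 15.1 to 45.9% and for PIL2 2.08 to 5.41%. In the other 10 it gave 49.4 to 519% of PIF8, 6.22 to 193% of PIF4 and 3.64 to 1080% of PIL1. There it was 2.99 to 79.1% of PAR1, 11.2 to 63.9% of PIF5 and 7.27 to 39.4% of PIF3. HFR1, PIF7, PIF1 and PIL2 had 18.3% or less there.

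**Figure D2:**
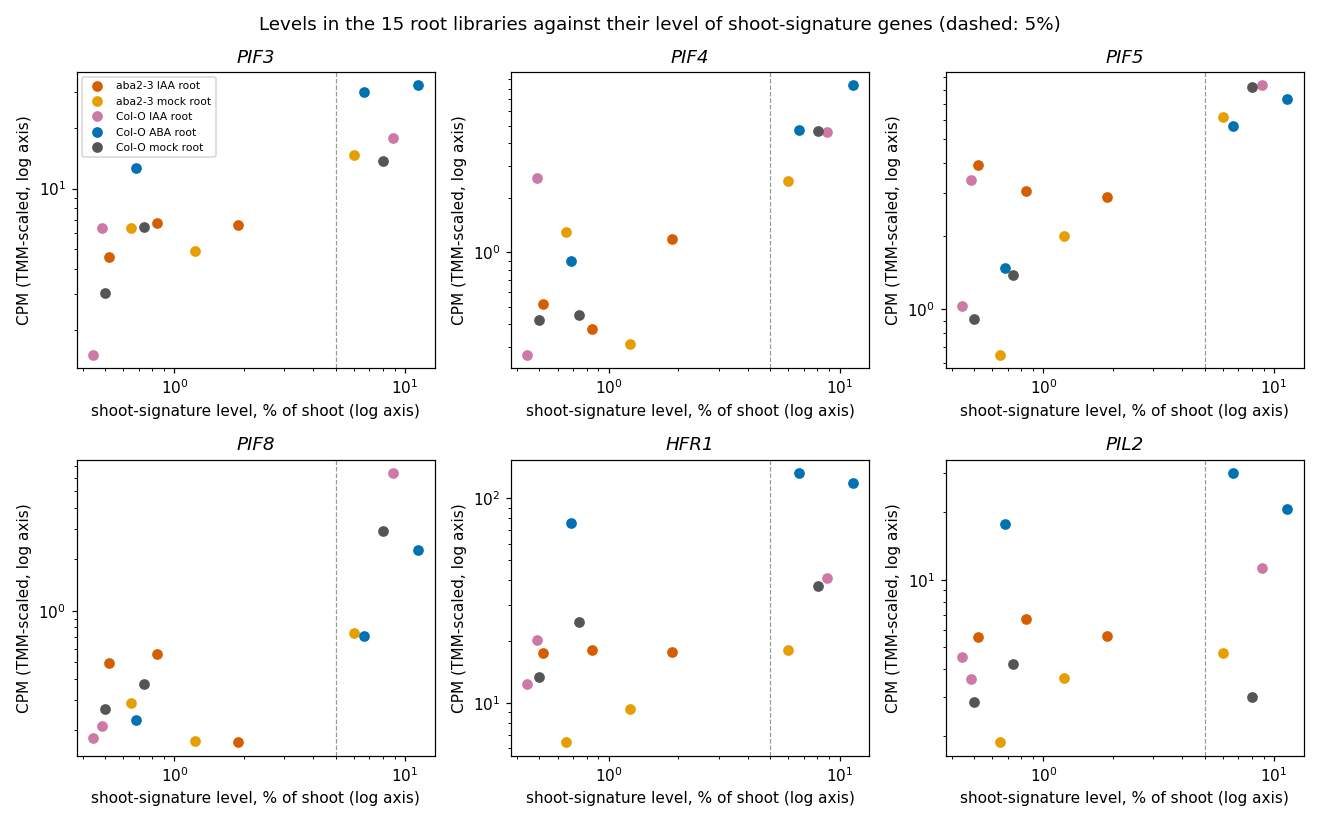
Level of 6 members in the 15 root libraries (TMM-scaled CPM, log axis) against the level of shoot-signature genes as a percentage of their shoot level (log axis), coloured by group; the dashed line marks 5%. PIF3, PIF5 and PIF8 are higher in all 5 libraries right of the line than in the 10 left of it, while HFR1 and PIL2 are high in all 3 Col-O ABA roots (blue) on both sides of it.

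ABA raised PIL2 and HFR1 in both organs. PIL2 was at 17.7, 20.8 and 30.0 CPM in Col-O ABA roots, against 2.86, 4.19 and 2.99 CPM in Col-O mock roots, a log2 difference of 2.77 ± 0.39 (adjusted p = 7.9e-06). In Col-O ABA shoots it was at 5.52, 15 and 7.73 CPM, against 2.25, 2.04 and 1.74 CPM in Col-O mock shoots (2.22 ± 0.38, adjusted p = 0.00026). In both organs all 3 treated libraries lay above all 3 mock libraries, and the call held in each of the 13 alternatives run for each organ, with log2 values of 2.38 to 2.96 in roots and 1.77 to 2.49 in shoots. Of the PIL2 exons, 231 bases also belong to AT3G62080 on the other strand, and whether counting used strand is not given in the sources used here. That neighbour was not called with ABA in either organ, and its log2 difference was -0.33 in roots and -0.14 in shoots.

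HFR1 was at 76.1, 119 and 133 CPM in Col-O ABA roots, against 13.4, 24.9 and 37.3 CPM in Col-O mock roots (2.12 ± 0.36, adjusted p = 0.00013). The groups did not overlap. The library with the lowest treated value, 76.1 CPM, had shoot-signature genes at 0.683%, a share that times the shoot mean makes 2.06 CPM. It is the 1 ABA root library left without the libraries above 5%, so that fit cannot show a spread between ABA roots. Over the 13 alternatives the log2 difference was 1.79 to 2.51. In shoots HFR1 was at 309, 302 and 294 CPM with ABA, against 142, 149 and 120 CPM with mock. That difference of 1.14 ± 0.35 separated the groups completely but stood close to the threshold (adjusted p = 0.039). It was 1.05 to 1.21 and no longer called when any 1 of the 6 libraries was left out: adjusted p was 0.077, 0.070 and 0.074 without ABA shoot 1, 2 or 3 and 0.070, 0.082 and 0.14 without mock shoot 1, 2 or 3. It was called under each of the other 7 alternatives, DESeq2 included.

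PIF1 fell with ABA in roots, to 1.57, 0.76 and 0.677 CPM in Col-O ABA roots, against 1.87, 3.07 and 5.67 CPM in Col-O mock roots (-1.74 ± 0.33, adjusted p = 0.00036). The treated and mock libraries did not overlap, although 1.57 and 1.87 CPM lie close together. The signature share times the shoot mean makes 0.103, 1.72 and 1.00 CPM in those ABA roots and 0.102, 0.151 and 1.65 CPM in those mock roots, which is more than was measured in ABA root 2 and 3. Without the libraries above 5% of shoot signature, which leaves 1 ABA root library, the value was -0.60. With the 2 groups fitted alone it was -1.80 and not called (adjusted p = 0.065). PIF3, a founding PIF that represses greening in darkness, was at 12.7, 32.4 and 29.9 CPM in Col-O ABA roots, against 3.06, 6.44 and 13.7 CPM in Col-O mock roots (1.70 ± 0.56, adjusted p = 0.037). The groups overlapped, and the 3 highest of these 6 values came from the libraries above 5%. For PIF3 the share times the shoot mean makes 0.921, 15.4 and 8.97 CPM in ABA roots and 0.609, 0.903 and 9.82 CPM in mock roots. The call was lost without ABA root 2 or 3 (1.47 and 1.57, adjusted p = 0.11 each), without mock root 1 or 2 (1.31 and 1.58, adjusted p 0.18 and 0.13) and with the 2 groups fitted alone (1.68, adjusted p = 0.087). Without all libraries above 5%, which leaves 1 ABA root library, the PIF3 value was 1.47. The part of shoot RNA in the PIF1 and PIF3 differences was not tested beyond these values.

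The main fit thus called 4 of 10 members with ABA in roots, where 15.7% of all genes were called. In shoots it called 2 of 10, where 9.65% of all genes were called. With the compared groups alone, the root calls of PIL2 and HFR1 held and those of PIF1 and PIF3 were lost. In shoots the PIL2 call held throughout, and that of HFR1 was lost with any single library left out. The members not called ranged in log2 difference from -0.32 to 1.37 in roots and from -0.44 to 0.37 in shoots. In shoots PIF3 was at 135 ± 20.8 CPM with ABA and 122 ± 37.3 CPM with mock, PIF4 at 62.5 ± 17.6 and 48.2 ± 17.2 CPM, PIF5 at 75.6 ± 1.25 and 77.8 ± 20.1 CPM, and PIF8 at 33.4 ± 7.02 and 34.0 ± 2.36 CPM (SD, n = 3 each). The libraries of these PIFs overlapped between treatments. The ABA response of no member was shown to differ between shoot and root: in the edgeR interaction test 0 of 10 were called, 1 had an unadjusted p under 0.05, and DESeq2 called 0 of the other 9, since it gave no adjusted p for PIF8 in any comparison. Of all genes, 1.72% were called in that test. PIF1 gave 1.30 ± 0.43 there, shoot minus root (adjusted p = 0.13), and was called without mock root 1 (1.61, adjusted p = 0.047) or ABA root 1 (1.88, adjusted p = 0.040). Without the libraries above 5%, which leaves 1 ABA root library, it was 0.19.

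**Figure D3:**
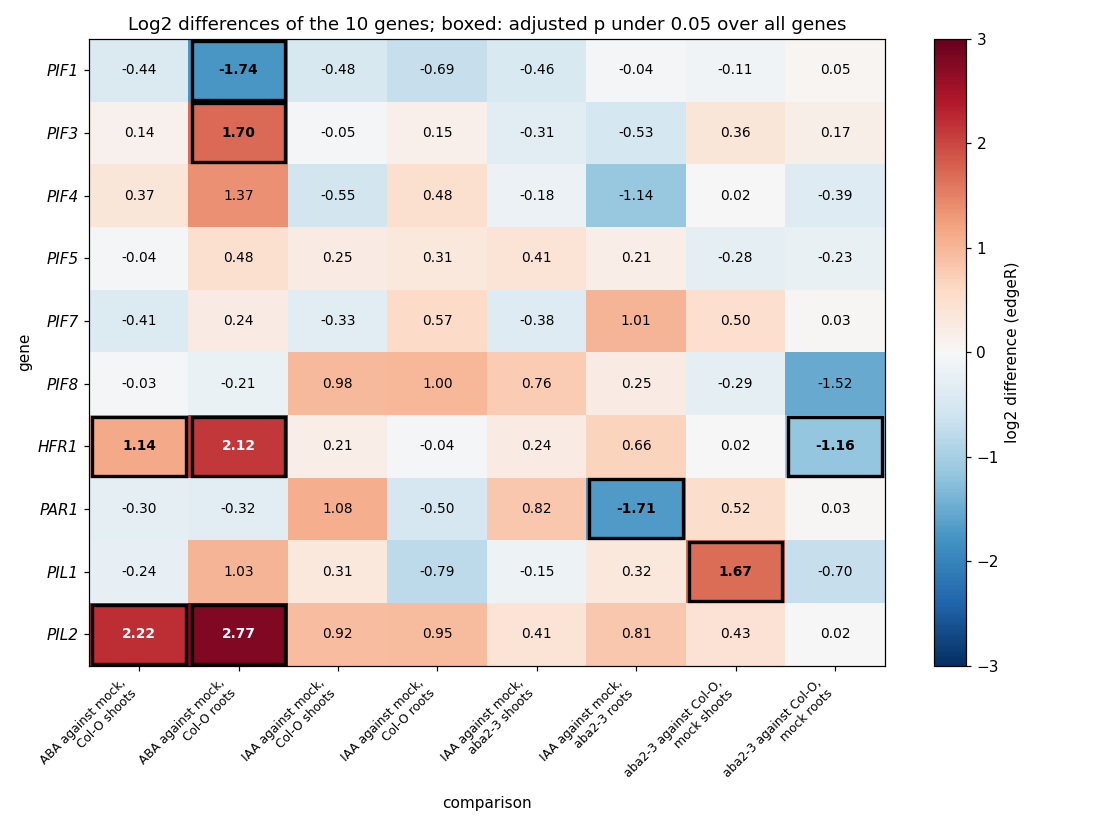
Log2 differences (edgeR) of the 10 genes (rows) in the 8 comparisons of hormone against mock and of aba2-3 against Col-O (columns), red for higher and blue for lower in the treated or aba2-3 group; boxes mark an adjusted p under 0.05 over all genes. PIL2 and HFR1 are boxed with ABA in both organs, and no member is boxed for IAA in Col-O.

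The stretch upstream of PIL2 is shown because the gene with the strongest ABA response carries a cluster of G-boxes (CACGTG), the motif that PIF proteins bind and whose ACGT core is shared with ABA-response elements. It is chr3:22991160-22991399 of TAIR10.1, minus strand, with the G-boxes in capitals.
PIL2: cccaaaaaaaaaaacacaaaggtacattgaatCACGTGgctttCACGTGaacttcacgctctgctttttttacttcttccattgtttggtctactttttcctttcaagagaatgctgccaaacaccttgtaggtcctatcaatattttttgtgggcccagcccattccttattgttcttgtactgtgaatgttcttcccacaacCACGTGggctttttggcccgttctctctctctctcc
The 3 G-boxes begin 658, 647 and 486 bases before the deposited gene start. Among 33322 windows of 1000 bases upstream of nuclear genes, both strands searched, 15.1% held a G-box and 0.516% held 3 or more. The next set shows where like motifs stand in genes that were and were not called. PIF4 and PIF5, neither of them called with ABA in either organ, each have CACGTGTC near the gene start, at 87 and 62 bases upstream. It joins a G-box to the overlapping ABA-response element ACGTGTC, which 8.62% of the same windows held. HFR1, which was called in both organs, has no G-box in its window. It has ACGTG, the core shared by these motifs, at 13 bases upstream, and 54.4% of windows held that core. PIF1 and PIF3, also called with ABA in roots, have no G-box, ACGTGTC or ACGTG in their 1000-base windows. The stretches are the 150 bases before each start, chr2:17886277-17886426 (plus strand) for PIF4, chr3:21830508-21830657 (minus) for PIF5 and chr1:467845-467994 (minus) for HFR1, with the motif in capitals.
PIF4: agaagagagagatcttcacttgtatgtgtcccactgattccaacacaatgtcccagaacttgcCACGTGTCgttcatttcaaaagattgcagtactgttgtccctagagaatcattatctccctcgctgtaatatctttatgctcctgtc
PIF5: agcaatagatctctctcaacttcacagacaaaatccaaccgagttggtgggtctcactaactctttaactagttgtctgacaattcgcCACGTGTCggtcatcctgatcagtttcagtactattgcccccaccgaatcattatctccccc
HFR1: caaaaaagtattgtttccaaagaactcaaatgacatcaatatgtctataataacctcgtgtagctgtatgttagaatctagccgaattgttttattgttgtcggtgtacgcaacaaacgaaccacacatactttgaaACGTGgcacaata
These matches describe letters in the windows and not binding, which was not measured.

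IAA called no member in Col-O and 1 of 10 in aba2-3. That 1 call was in roots, where 11.8% of all genes were called. In Col-O shoots the largest differences were those of PAR1, PIF8 and PIL2. PAR1 was at 68.2, 91.1 and 81.4 CPM in IAA shoots, against 25.1, 47.5 and 40.9 CPM in mock shoots, a log2 difference of 1.08 ± 0.42 that was not called (adjusted p = 0.18). PIF8 was at 62.6, 69.1 and 70.3 CPM in IAA shoots, against 35.7, 35.2 and 31.3 CPM in mock shoots (0.98 ± 0.69, adjusted p = 0.51). All 3 IAA libraries lay above all 3 mock libraries for both genes. The SE of PIF8 is large, and its root libraries, which share the fit, spread widely, with 0.181, 6.39 and 0.211 CPM in Col-O IAA roots. Whether that spread sets the SE was not tested. With the Col-O IAA and mock shoots fitted alone its difference was 1.03 and called (adjusted p = 0.0097), as it was without the libraries above 5% (1.01, adjusted p = 0.0028) and with covariates for the other organ's signature (0.99, adjusted p = 0.040). It stayed uncalled in all 6 fits with a library left out and in the remaining alternatives that gave an adjusted p (up to 0.68). PIL2 was at 3.78, 2.96 and 4.68 CPM in Col-O IAA shoots and 2.25, 2.04 and 1.74 CPM in Col-O mock shoots (0.92 ± 0.38, adjusted p = 0.23).

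The aba2-3 shoots gave like values. PAR1 was at 98.2, 115 and 72.7 CPM in IAA shoots, against 47.9, 59.4 and 55.5 CPM in mock shoots (0.82 ± 0.42, adjusted p = 0.51), and PIF8 at 46.8, 48.4 and 45.8 CPM, against 34.1, 25.4 and 23.7 CPM (0.76 ± 0.69, adjusted p = 0.80). Neither gene's libraries overlapped between treatments. With the 2 groups fitted alone both were called, PAR1 at 0.88 (adjusted p = 0.0036) and PIF8 at 0.81 (adjusted p = 0.0059). That fit called 1347 genes in all, against 425 in the main fit. PIF8 was also called without the libraries above 5% (0.82, adjusted p = 0.034). The 2 IAA responses do not share control samples.

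Roots differed for PAR1. In aba2-3 IAA roots it fell to 1.27, 3.91 and 1.01 CPM, against 4.30, 6.52 and 7.10 CPM in aba2-3 mock roots (-1.71 ± 0.49, adjusted p = 0.024). The groups did not overlap. The call was lost without IAA root 1 or 3 (-1.42 and -1.37, adjusted p = 0.11 each), without mock root 2 or 3 (-1.64 and -1.57, adjusted p 0.063 and 0.076) and with the 2 groups fitted alone (-1.62, adjusted p = 0.087). IAA root 1 and 3, at 1.27 and 1.01 CPM, are the libraries with the low root signature (68.1 and 68.9%). The part of this in the PAR1 difference was not tested. The IAA response of PAR1 was higher in shoots than in roots of aba2-3 by 2.52 ± 0.64 on the log2 scale (adjusted p = 0.036), in a test that called 2.19% of genes. It was 2.18 to 2.66 and no longer called (adjusted p 0.068 to 0.12) without aba2-3 mock root 2 or 3, IAA root 1 or 3, any mock shoot library, or IAA shoot 1 or 2. HFR1 was at 17.6, 17.8 and 18.2 CPM in aba2-3 IAA roots, against 18.2, 9.37 and 6.41 CPM in aba2-3 mock roots (0.66 ± 0.36, adjusted p = 0.24). The mock library at 18.2 CPM is the one above 5%, and without the libraries above 5% the difference was 1.18 and called (adjusted p = 0.0022), as it was with the covariates (1.03, adjusted p = 0.0011). In Col-O roots PAR1 was at 2.33, 8.25 and 1.94 CPM with IAA and 6.30, 2.88 and 8.50 CPM with mock. The 8.25 CPM library is the IAA root library above 5%, and without it the shoot-minus-root difference of PAR1 in Col-O was 2.53 and called (adjusted p = 0.021), against 1.58 ± 0.61 (adjusted p = 0.25) with it.

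Of all genes, IAA called 5.57% in Col-O roots, 2.22% in Col-O shoots, 11.8% in aba2-3 roots and 1.92% in aba2-3 shoots. In Col-O roots, Col-O shoots and aba2-3 shoots, where edgeR called 0 members, 2, 2 and 0 members had an unadjusted p under 0.05, and DESeq2 called 0 of the 9 it could judge, PIF8 being the one left out. Members whose libraries did not overlap between IAA and mock numbered 5 in Col-O shoots, where 21.3% of all genes did not overlap, and 7 in aba2-3 shoots, where 25.2% did not. PIF1 was among them, at 15.2, 14.0 and 14.8 CPM in Col-O IAA shoots against 15.4, 22.5 and 23.5 CPM in Col-O mock shoots (-0.48 ± 0.28, adjusted p = 0.42) and at 13.9, 14.1 and 13.5 CPM in aba2-3 IAA shoots against 18, 19.2 and 19.9 CPM in aba2-3 mock shoots (-0.46 ± 0.29, adjusted p = 0.65). In the test of IAA response between shoot and root in Col-O, 0 members were called, 1 had an unadjusted p under 0.05 and 0.997% of genes were called. Between genotypes, the IAA response differed for 0 members in roots, where 1.32% of genes were called, and for 0 in shoots, where 0.00451% were. No member had an unadjusted p under 0.05 in either of those 2 tests, and DESeq2 called 0 of the members other than PIF8 in these 3.

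The PAR1 promoter is shown because PAR1 gave the 1 IAA call among the members. The 150 bases before its start, chr2:17837251-17837400 of TAIR10.1, minus strand, hold the auxin-response element TGTCTC, in capitals, at 120 bases upstream. Among all 1000-base windows 39.7% held that motif, and those of PIF1 and PIF3 each held 2, as did that of PAR1. PIF5, PIF7, HFR1 and PIL1, with no IAA call, each held 1. The windows of PIF4, PIF8 and PIL2 held none.
PAR1: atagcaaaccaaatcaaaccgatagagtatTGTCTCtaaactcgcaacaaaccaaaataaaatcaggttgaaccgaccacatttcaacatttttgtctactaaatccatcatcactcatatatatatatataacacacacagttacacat

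Between genotypes, PIL1 stood out in shoots. It was at 29.7, 29.7 and 32.0 CPM in aba2-3 mock shoots, against 4.98, 12.8 and 10.8 CPM in Col-O mock shoots, a log2 difference of 1.67 ± 0.42 (adjusted p = 0.031), with no overlap. The lowest Col-O value came from mock shoot 1, the library with the low shoot signature. Without it the difference was 1.37 and not called (adjusted p = 0.17). The call was also lost without Col-O mock shoot 3 (1.76, adjusted p = 0.057) and without aba2-3 mock shoot 2 or 3 (1.69 and 1.63, adjusted p 0.11 and 0.13). A comparison added after these values were seen set the IAA shoots side by side: PIL1 was at 23.9, 30.8 and 27.7 CPM in aba2-3 IAA shoots and 10.2, 12.1 and 13.3 CPM in Col-O IAA shoots, again with no overlap (1.21 ± 0.42, adjusted p = 0.19). With those 2 groups fitted alone it was 1.22 and called (adjusted p = 0.0051).

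**Figure D4:**
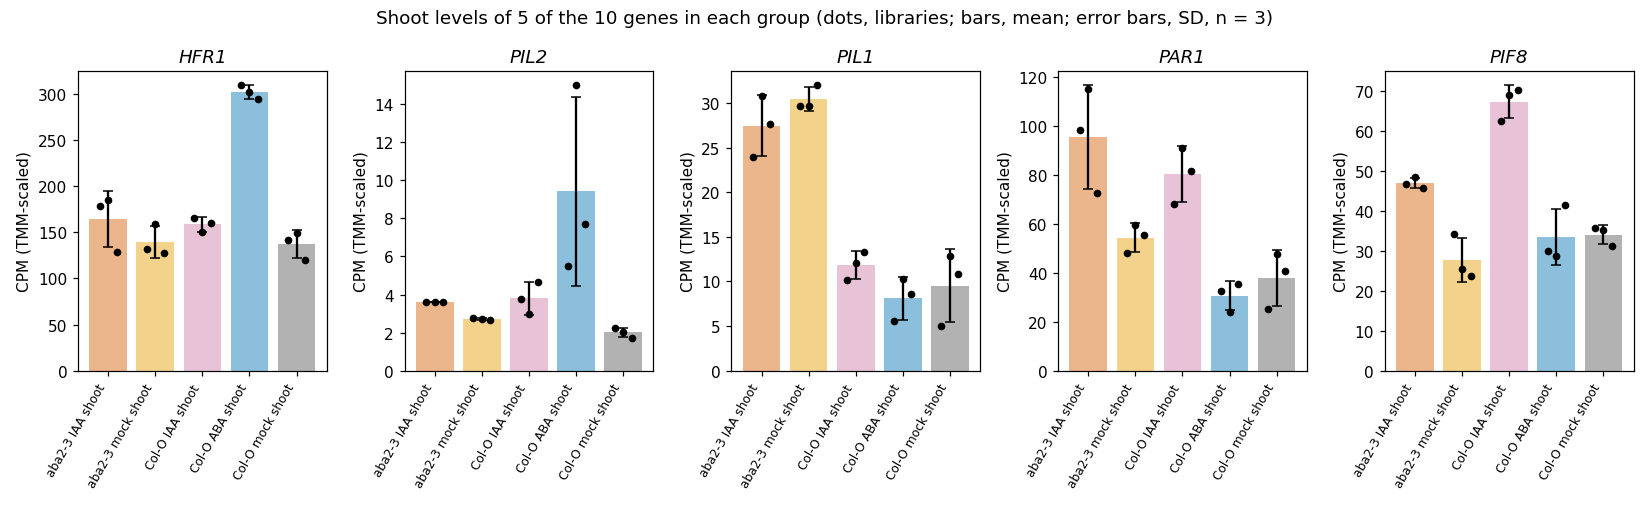
Shoot levels (TMM-scaled CPM, linear axis) of 5 members in the 5 treatment groups, with dots for libraries, bars for means and error bars for SD (n = 3). HFR1 and PIL2 are highest with ABA, PIL1 is higher in both aba2-3 groups than in the 3 Col-O groups, and PAR1 and PIF8 are higher with IAA than with mock in each genotype.

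In mock roots HFR1 was the member called. It was at 18.2, 9.37 and 6.41 CPM in aba2-3 roots, against 13.4, 24.9 and 37.3 CPM in Col-O roots (-1.16 ± 0.36, adjusted p = 0.049), and the groups overlapped. The difference was -0.76 without Col-O mock root 3 (adjusted p = 0.26), the library of this group above 5%, and was also not called without Col-O mock root 2 (-1.17, adjusted p = 0.12) or aba2-3 mock root 2 or 3 (-1.04 and -0.88, adjusted p 0.17 and 0.23). Other normalization, filtering, the replicate block and a fit of the 2 groups alone each removed the call as well, with values of -1.18 to -1.13 and adjusted p of 0.058 to 0.16. Of all genes, 2.63% were called between genotypes in mock shoots and 7.19% in mock roots, against 1 of 10 members in each. In the added IAA comparisons 1.16% of genes were called in shoots and 1.72% in roots, with 0 members called in either by edgeR, 0 of the members other than PIF8 by DESeq2, and 1 and 4 members at an unadjusted p under 0.05. The genotype difference of PIL1 was 2.37 ± 0.71 larger in shoots than in roots on the log2 scale but missed the threshold (adjusted p = 0.094), in a test that called 1.54% of genes and 0 members, with 2 members at an unadjusted p under 0.05. DESeq2 called PIL1 there (2.35, adjusted p = 0.012).

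Other genes of the same pathways were read from lists. Over all genes, IAA called 2.22% in Col-O shoots, 1.92% in aba2-3 shoots, 5.57% in Col-O roots and 11.8% in aba2-3 roots. ABA called 9.65% in Col-O shoots and 15.7% in Col-O roots. Between genotypes 2.63% were called in mock shoots and 7.19% in mock roots. Among 17 shade- and PIF-induced genes, IAA raised 5 in Col-O shoots and 5 in aba2-3 shoots, namely the Aux/IAA genes IAA29 and IAA19 and the homeobox genes HAT2, HAT1 and ATHB2 in both. ATHB2, a classical shade marker, changed least (0.71 in Col-O and 0.77 in aba2-3, adjusted p 0.046 and 0.032). IAA29 was at 62.8 ± 12.8 CPM in Col-O IAA shoots and 5.69 ± 1.38 CPM in Col-O mock shoots (3.45 ± 0.41, adjusted p = 7.9e-06). HAT2 was at 784 ± 30.3 CPM and 92.9 ± 7.45 CPM in the same groups (3.08 ± 0.15, adjusted p = 6.6e-13). In roots IAA raised 3 and lowered 2 in Col-O, where the auxin synthesis genes YUC5 and YUC8 fell by 1.64 and 0.98, and raised 5 and lowered 2 in aba2-3. ABA lowered IAA29, YUC5, HAT1 and HAT2 and raised ATHB4 (1.94 ± 0.48, adjusted p = 0.0057) in Col-O roots, and lowered HAT2 and HAT1 in Col-O shoots. IAA29 was at 0.175 ± 0.17 CPM in ABA roots and 1.33 ± 0.54 CPM in mock roots (-2.78 ± 0.61, adjusted p = 0.0020), and HAT2 was lower with ABA in both organs (-0.76 in roots and -0.81 in shoots, adjusted p 0.00028 and 0.00025). Without the libraries above 5%, which leaves 1 ABA root library, HAT2 and HAT1 gave -0.44 and -0.60 with ABA in roots, against -0.76 and -0.87 in the main fit. Between genotypes, HAT1 was lower in aba2-3 mock shoots (-0.80, adjusted p = 0.040), and in aba2-3 mock roots BBX24 was higher and HAT2 lower (0.78 and -0.66, adjusted p 0.022 and 0.0052). The median log2 difference over this list for IAA was 0.26 in Col-O shoots, 0.04 in aba2-3 shoots, 0.58 in Col-O roots and -0.24 in aba2-3 roots, and for ABA it was -0.32 in Col-O shoots and -0.24 in Col-O roots. Over all genes these 6 medians lay between -0.07 and 0.00.

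Of 18 other growth-linked HLH and bHLH genes, 16 passed the filter. BEE1, a brassinosteroid-induced bHLH gene, rose with IAA in Col-O roots and shoots and in aba2-3 roots; it was at 237 ± 17.1 CPM in Col-O IAA shoots and 59.1 ± 2.53 CPM in Col-O mock shoots (2.00 ± 0.54, adjusted p = 0.047). KDR, which encodes an atypical HLH protein that binds HFR1, rose with IAA in the shoots of both genotypes (1.59 in Col-O and 1.76 in aba2-3, adjusted p 0.0034 and 0.0010). PRE5, of the growth-promoting PRE family, rose in aba2-3 IAA shoots (3.10 ± 0.75, adjusted p = 0.027). BIM1, a bHLH partner of the brassinosteroid factor BES1, rose with ABA in Col-O roots and shoots (1.43 and 1.01, adjusted p 2e-05 and 0.0020) and was lower in aba2-3 than in Col-O in mock roots and mock shoots (-0.82 and -0.93, adjusted p 0.018 and 0.015). BEE3, a relative of BEE1, and KDR fell with ABA in roots (-3.34 and -0.92, adjusted p 0.0073 and 0.048). Without the libraries above 5%, which leaves 1 ABA root library, their values were -2.26 and 0.16. BIM1 fell with IAA in Col-O roots (-0.78, adjusted p = 0.028). In the organ contrast of Col-O mock 12 of the 16 were higher in shoots, against 25.6% of all genes. The 1 called lower was PRE3, at 0.314 ± 0.124 CPM in shoots and 25.0 ± 5.73 CPM in roots.

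Among 7 phytochrome and cryptochrome genes, 5 were higher in Col-O mock shoots than in Col-O mock roots, led by PHYA, the light-labile far-red receptor, at 487 ± 109 CPM and 84.7 ± 13.9 CPM (2.52 ± 0.26, adjusted p = 2.7e-08). ABA lowered CRY1 and PHYC in shoots (-0.77 and -0.74, adjusted p 0.011 and 0.020), and IAA lowered PHYC in Col-O roots (-0.80, adjusted p = 0.023). Of 12 photomorphogenesis regulators, 10 were higher in Col-O mock shoots than roots, a contrast in which 25.6% of all genes were called higher. PCH1, which stabilizes active phytochrome B, and FHY1, which carries phytochrome A into the nucleus, fell with ABA in roots (-1.36 and -0.89, adjusted p 0.00015 and 0.00030). HY5, which promotes light responses, was at 67.8 ± 4.85 CPM in aba2-3 mock shoots and 110 ± 10.2 CPM in Col-O mock shoots (-0.70 ± 0.15, adjusted p = 0.012). FHL, a partner of FHY1, rose with IAA in aba2-3 roots and shoots (1.13 and 1.18, adjusted p 0.0040 and 0.0077) and was lower in aba2-3 than in Col-O mock roots (-0.99, adjusted p = 0.017). Of 5 DELLA genes, whose proteins hold PIFs off DNA, ABA lowered GAI and RGA in roots (-0.55 and -0.57) and GAI in shoots (-0.91), with adjusted p of at most 0.012, and IAA lowered GAI and RGA in aba2-3 roots (-1.18 and -0.49, adjusted p 1.2e-05 and 0.021). Without the libraries above 5%, which leaves 1 ABA root library, the ABA values in roots were -0.30 for GAI and, as in the main fit, -0.57 for RGA. The RGA call with IAA in aba2-3 roots was lost in that setting (-0.41, adjusted p = 0.12). RGL3, another DELLA gene, rose with IAA in aba2-3 shoots, to 32.1 ± 8.03 CPM against 11.2 ± 2.96 CPM in mock (1.53 ± 0.29, adjusted p = 0.0034), and GAI was higher in aba2-3 than in Col-O mock roots (0.79, adjusted p = 0.0023). All 7 greening genes that PIFs repress in darkness were higher in shoots than in roots in each of the 5 conditions. Over all genes that share was 25.5 to 27.8%. The hormone call in this list was that of the carotenoid synthesis gene PSY, at 152 ± 38.7 CPM in Col-O ABA roots and 42.1 ± 21.0 CPM in Col-O mock roots (1.85 ± 0.45, adjusted p = 0.0047). In that comparison 2 of the 3 ABA roots carry the shoot signature at 11.4 and 6.65%, and the median log2 difference was 0.91 over the shoot markers and 1.12 over the greening genes. Without the libraries above 5%, which leaves 1 ABA root library, PSY gave 1.92.

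The rule for naming genes from these lists gave 58 hormone and genotype calls, of which 36 held whichever library was left out. The 22 lost when at least 1 library was left out were those of PHYC, CRY1, FHL in shoots and in the genotype contrast, HY5, GAI with ABA in roots, RGA with IAA, BEE1 in Col-O, BIM1 with IAA and between genotypes, KDR with ABA, PRE5, YUC8, ATHB2, ATHB4, HAT1 with ABA in shoots and between genotypes, and BBX24. Without the libraries above 5%, 12 of the 58 were lost. That setting leaves 1 Col-O ABA root library, so for ABA in roots the effect of having fewer libraries cannot be told apart.

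The genes whose profiles were most like those of the members were ranked by Pearson's r over the 30 libraries after subtracting each organ's mean, among 15137 genes. These r describe libraries that share groups and depth, and carry no test. HFR1 was most like AT5G59480 (r = 0.92) and MYB96 (r = 0.91), an R2R3-MYB gene of ABA responses. PIL2 was most like FIB and MSL6 (r = 0.90 each) and PIF8 like the gibberellin oxidase gene ATGA2OX1 (r = 0.91). PIF3 was most like PRXQ and CH1, nuclear genes for plastid proteins (r = 0.90 and 0.89), and PIL1 like AT2G47880 (r = 0.90). Among the members, the closest pairs were HFR1 with PIL2 (r = 0.86) and PIF3 with PIF4 (r = 0.81), and the most opposed was PIF1 with PIL2 (r = -0.65). PIF7 had no gene above r = 0.72. The r of PIF3, PIF4, PIF5 and PIF8 include the root libraries that carry more of the shoot signature.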

How the data were processed

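Each deposited file gives, per the file headers, a Count, CPM and RPKM column for 33602 genes. The deposited CPM equals the authors' count over the library total in 30 of 30 files, and the deposited RPKM equals that CPM over the exon length in kilobases in 30 of 30 files (relative tolerance 1e-06). RNA came from an RNeasy Plant Mini column kit and cDNA from a SMARTer kit, per the labels' protocols, and all libraries carry the same run identifier. The submitters' processing notes name STAR, Subread, featureCounts, edgeR, limma and the build TAIR10. The use of strand in counting is not given in the sources used here.

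Only the counts were tested. Groups and replicate numbers came from the sample titles. In R 4.3.3, edgeR 4.0.16 with limma 3.58.1 (two-sided quasi-likelihood tests) fitted all 30 libraries with 1 mean per group, TMM scaling and filterByExpr, which kept 22156 genes. A gene is called at a Benjamini-Hochberg adjusted p under 0.05 within a comparison. The SE is the absolute log2 difference over the square root of F. With 19 planned comparisons and 2 added after values were seen, no adjustment was made across comparisons. Tables were summarised with Python 3.11.15. The fit was also run on simulated counts in which some genes were changed in Col-O IAA shoots only. These counts held no organ differences and no RNA of the other organ, so that run does not test the effect of either.

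The members follow from locus identifiers and no measured values enter their rule, but they and the lists were proposed with earlier results of these data known. All 10 members are named in every group; from the other lists, those called with the largest absolute log2 difference, at most 3 a list and comparison, or all where at most 5 were called. Likeness used log2(CPM + 1) and genes averaging at least 5 CPM. Shoot- and root-signature genes have a median of at least 20 CPM in their organ and, in the lowest library of every group of the other organ, under 1/50 of that median. A library's percentage is the median over these genes of its CPM over that median. The alternatives were RLE size factors, no filter, covariates for the other organ's signature, leaving out libraries above 5% of it, a replicate block, the compared groups alone, DESeq2 1.42.0 and each replicate left out. Promoters were read from TAIR10.1, whose sequence gave GT-AG ends for 98.8% of 83265 introns of the deposited exons, and no deposited gene ran past a chromosome end. Levels are printed per library, as a range or with their SD, and no interval of counting error was computed. Amino acid sequences were not used here.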

Additional observations from a re-analysis of the deposited data

Results flagged for a closer look

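The IAA response of PAR1, whose protein pairs with PIFs, differed between organs of aba2-3 by 2.52 ± 0.64 on the log2 scale, shoot minus root (adjusted p = 0.036, edgeR interaction test). PAR1 averaged 95.2 ± 21.1 CPM in aba2-3 IAA shoots and 54.3 ± 5.88 CPM in aba2-3 mock shoots, and 2.07 ± 1.61 CPM in aba2-3 IAA roots and 5.97 ± 1.48 CPM in aba2-3 mock roots (SD, n = 3 each). All 3 IAA shoot libraries lay above, and all 3 IAA root libraries below, those of the matching mock. The value was 2.18 to 2.66 with 1 of 9 libraries left out, and was then no longer called (adjusted p 0.068 to 0.12): aba2-3 mock root 2 or 3, aba2-3 IAA root 1 or 3, aba2-3 mock shoot 1, 2 or 3, and aba2-3 IAA shoot 1 or 2. It held under DESeq2, the replicate block and the other-organ covariates. The aba2-3 IAA root libraries 1 and 3 had root-signature genes at 68.1 and 68.9% of the root median, the lowest among roots. The part of this in the PAR1 value was not tested.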

How the results depend on the processing

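The organ calls were the steadiest: 9 members were higher in shoots in each condition under most alternatives, the exceptions being PIF7, as given above, and PIF8 under DESeq2, which returned no adjusted p for it in any comparison. The PIL2 organ difference in aba2-3 mock ran from -0.59 to 0.02 with single libraries left out, and turned from -0.32 to 0.02, both without aba2-3 mock root 1 and without the libraries above 5% of the other organ's signature. The cause was not tested. Counts of members called moved as follows. For ABA in Col-O roots, 4 became 2 (PIL2 and HFR1) with the compared groups alone, and in Col-O shoots 2 became 1 with any library left out (range 1 to 1). Without those libraries above 5%, 1 ABA root library is left. For IAA in Col-O shoots, 0 became 1 (PIF8) with the other-organ covariates, without those libraries and with the groups alone. For IAA in aba2-3 shoots, 0 became 1 (PIF8) without those libraries and 2 (PIF8 and PAR1) with the groups alone. The latter fit called 1347 genes in all, against 425 in the main fit. For IAA in aba2-3 roots, 1 became 4 with the covariates, 3 without those libraries and 0 with the groups alone, and ran from 0 to 1 with single libraries left out. With the covariates the 4 were PAR1, HFR1, PIL2 and PIF5. PIF5 there was 0.21, and was 1.18 with the covariates, 1.32 without aba2-3 mock root 1, and reversed to -0.01 and -0.30 without aba2-3 mock root 2 or 3. For aba2-3 against Col-O in mock roots, 1 (HFR1) became 0 with RLE size factors, with no filter, with the replicate block and with the groups alone, and ran from 0 to 1 with single libraries left out, as did mock shoots (PIL1). In the added IAA shoots comparison 0 became 2 (PIL1 and PIF8) with the groups alone. In the interactions, 0 became 1 (HFR1) for the IAA response between genotypes in roots, with the covariates and without those libraries, and 0 became 1 for the genotype difference between organs, with the covariates and without those libraries (HFR1) and under DESeq2 (PIL1). With single libraries left out, the organ interactions of IAA in Col-O, ABA in Col-O and IAA in aba2-3 each ran from 0 to 1.

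Same-numbered replicates showed no general pairing: over 135 pairs of groups and numbers the median correlation of their deviations was 0.032 (from -0.47 to 0.51). Of these, 39 were over 0.1. For the 15 pairs of root and shoot of the same genotype, treatment and number it ran from -0.24 to 0.29. These values cannot tell whether such roots and shoots came from the same seedlings. Beside HFR1 in mock roots, the replicate block removed the PIF7 organ call in aba2-3 IAA (adjusted p = 0.05 at the threshold) and no other count of members moved.

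Over all genes, the number called ran beyond 1.5 times its value for hormone, genotype and interaction comparisons. IAA called 1234 genes in Col-O roots (653 to 2042 over the 7 alternatives that leave out no single library, 577 to 948 with a library left out), 491 in Col-O shoots (195 to 1081, 165 to 899), 2622 in aba2-3 roots (1340 to 3699, 1603 to 2351) and 425 in aba2-3 shoots (349 to 1347, 214 to 379). ABA called 3480 in Col-O roots (2170 to 4223, 2519 to 3236) and 2137 in Col-O shoots (1209 to 2893, 1453 to 2417). Between genotypes, 1592 were called in mock roots (1108 to 2458, 552 to 1419), 583 in mock shoots (297 to 1199, 143 to 689), 380 in IAA roots (148 to 847, 203 to 404) and 257 in IAA shoots (90 to 672, 78 to 227). The interaction tests called 221 for IAA by organ in Col-O (106 to 713, 104 to 566), 380 for ABA by organ (155 to 1047, 179 to 744), 485 for IAA by organ in aba2-3 (360 to 985, 211 to 485), 293 for IAA by genotype in roots (153 to 944, 56 to 334), 1 in shoots (0 to 2, 0 to 2) and 341 for genotype by organ (123 to 996, 79 to 370). In the IAA-by-organ test of aba2-3, 232 genes were higher and 253 lower with TMM, and 282 and 204 with RLE size factors. Members at a few counts in roots, PIL1 and PIF8 above all, are limited by depth there.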
